A study of Homo sapiens with 16 samples.

Results

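The 7 genes described here encode the inhibitors of cyclin-dependent kinases (CDKs) and form 2 families. CDKN1A, CDKN1B and CDKN1C are the CIP/KIP family, and CDKN2A, CDKN2B, CDKN2C and CDKN2D are the INK4 family. They were matched by symbol to the Ensembl identifiers of the count files, all 7 were found, and the files list 54127 gene identifiers in all. Their transcripts were followed by RNAseq in HT55 and SW948, which are established colorectal cancer cell lines. Cells of each line were grown as adherent cultures in serum-containing medium and received either itraconazole, an azole antifungal, at 5 µM or its solvent DMSO, and RNA was taken on day 6. This gave 4 groups (HT55 DMSO, HT55 itraconazole, SW948 DMSO and SW948 itraconazole) of 4 replicates each. The study describes the replicates as biological, but the labels do not say how the cultures were kept apart, so p-values measure the spread between these libraries. Each treatment was seen in 1 culture format and in 2 lines, and nothing here separates the RNA of dividing and nondividing cells of a culture.

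A CDK with its cyclin drives the cell from one phase of the cycle to the next. INK4 proteins bind CDK4 and CDK6 and keep D-type cyclins from activating them, which leaves the retinoblastoma protein RB bound to E2F factors and the genes of S phase silent. CIP/KIP proteins bind a wider range of cyclin-CDK complexes, including those of CDK2, and their amounts are set by protein breakdown as well as by transcription. Several of these genes are raised in senescent or differentiated cells, and the locus that holds CDKN2A and CDKN2B is often deleted or silenced in tumors.

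Depth was similar across libraries, with 8269406 to 11110814 counts in genes. Values are given as CPM, counts per 1000000 gene counts with library sizes scaled by the TMM method of edgeR. Within a line the HT55 itraconazole libraries were the least alike. Replicate 3 of that group lay at -13.2 on the second principal component of all genes tested, between the HT55 DMSO libraries (16.02 to 17.0) and the other 3 (-46.8 to -33.8), so the HT55 results are also given without it. Replicate 1 of SW948 itraconazole lay nearest to its controls (-40.3 against -64.2 to -51.2). All 11 colorectal epithelial marker genes had counts in every group, with a summed level of 6782 to 15192 CPM over the libraries, and the lines were as labeled in that respect. Of 10 measured markers of other cell types, CD3E of T cells had no count and PTPRC of blood cells had 1 count over all 16 libraries. The summed level of those 10 was 30.7 to 35.4 CPM in HT55 DMSO, 25.8 to 66.6 in HT55 itraconazole, 21.2 to 27.1 in SW948 DMSO and 120.4 to 124.9 in SW948 itraconazole, most of it CD68, a lysosomal protein that is also made outside macrophages. COL1A1 of fibroblasts rose in SW948 from 3.16 to 10.1 CPM (log2 fold change 1.65, edgeR adjusted p = 9.01e-07), and PDGFRB of pericytes rose in HT55 from 1.04 to 2.49 CPM (1.25, edgeR adjusted p = 0.00216). Other markers of such cells did not follow: COL1A2 had 2 counts and VIM had 8 counts over all 16 libraries. PDGFRB in SW948 was under the filter, at 0.545 CPM in DMSO and 0.262 in itraconazole. ACTA2 of muscle was at 1.23 and 1.83 CPM in HT55 DMSO and itraconazole (edgeR adjusted p = 0.0908), and at 0.744 and 1.85 in SW948, where it was under the filter. The part of these markers in the results was not tested.

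CDKN2A and CDKN2B lie 7602 bases apart on chromosome 9, and their coding sequences are alike, so it was checked how far a 50-base read can tell them apart. Their annotated transcripts share 31 words of 50 bases on the same strand, which is 0.755% of those of CDKN2A and 0.776% of those of CDKN2B. Reads of such words align equally well to both genes and were set apart by the counting, so almost all reads of these 2 genes could be told apart from each other. With both strands taken, 12.9% of the words of CDKN2A were shared with another gene. The other 5 members shared no 50-base word on the same strand with any other annotated gene. On the opposite strand CDKN2A shared exon sequence with the antisense RNA CDKN2B-AS1 (593 bases, 15.3% of its exons), CDKN1A with the long noncoding RNA DINOL (4.9%) and CDKN2C with an unnamed long noncoding RNA (20.4%). Whether the counting used strand is not given in the sources used here, so such reads cannot be told apart.

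The promoter windows of 4 members are shown. These members were picked for changes given below, and CDKN1B and CDKN2C, which also changed in SW948, are not printed. The windows are the 250 bases before the start site in RefSeq (GRCh38.p14), read in the direction of transcription. CDKN2A has 2 starts, from which the p14ARF transcript (the upstream one) and the p16INK4a transcript arise, and the gene-level counts do not separate them. Capitals mark the letters GGGCGG (a GC box, as bound by SP1), CCAAT (as bound by NF-Y), TATAAA (as bound by TBP), TTTNNCGC (as in E2F sites), CACGTG (an E-box) and GTAAACA (as in FOXO sites) on either strand, and neighboring GC boxes can overlap.
CDKN1A, chr6:36678464-36678713, plus strand: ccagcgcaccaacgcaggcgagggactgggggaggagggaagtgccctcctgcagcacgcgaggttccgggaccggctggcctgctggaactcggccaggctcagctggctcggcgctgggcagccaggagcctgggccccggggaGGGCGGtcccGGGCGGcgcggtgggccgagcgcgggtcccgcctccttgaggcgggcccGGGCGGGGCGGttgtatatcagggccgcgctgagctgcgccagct
CDKN2A, upstream start, chr9:21995325-21995574, minus strand: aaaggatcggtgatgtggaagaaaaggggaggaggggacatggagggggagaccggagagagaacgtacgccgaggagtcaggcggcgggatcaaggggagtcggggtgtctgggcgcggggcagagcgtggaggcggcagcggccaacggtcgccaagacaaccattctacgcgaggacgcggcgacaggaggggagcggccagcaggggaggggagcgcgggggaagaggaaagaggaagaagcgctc
CDKN2A, downstream start, chr9:21974858-21975107, minus strand: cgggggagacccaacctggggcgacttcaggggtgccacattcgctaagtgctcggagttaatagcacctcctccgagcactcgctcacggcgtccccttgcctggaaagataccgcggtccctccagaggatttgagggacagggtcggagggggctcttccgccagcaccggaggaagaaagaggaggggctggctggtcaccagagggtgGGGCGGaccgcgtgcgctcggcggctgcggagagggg
CDKN2B, chr9:22009306-22009555, minus strand: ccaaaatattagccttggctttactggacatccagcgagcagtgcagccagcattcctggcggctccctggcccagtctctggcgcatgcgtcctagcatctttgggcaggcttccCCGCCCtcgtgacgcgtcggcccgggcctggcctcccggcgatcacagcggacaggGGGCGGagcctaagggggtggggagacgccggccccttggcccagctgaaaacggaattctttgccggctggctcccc
CDKN2D, chr19:10568980-10569229, minus strand: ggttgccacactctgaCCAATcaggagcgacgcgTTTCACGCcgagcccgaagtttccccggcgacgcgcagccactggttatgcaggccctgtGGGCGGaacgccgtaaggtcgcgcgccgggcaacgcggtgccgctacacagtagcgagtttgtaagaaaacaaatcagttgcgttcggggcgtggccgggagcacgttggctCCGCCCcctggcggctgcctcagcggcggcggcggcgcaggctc
There were 4 GC boxes in the CDKN1A window, 2 each in those of CDKN2B and CDKN2D, 1 at the downstream start of CDKN2A and none before its upstream start. Of the 5 windows printed, that of CDKN2D held CCAAT and TTTNNCGC and the other 4 did not. Among windows not printed, that of CDKN1B held CCAAT 2 times and 1 of the 3 windows of CDKN2C held it 1 time. The CDKN1B window also held 1 GC box. The 3 windows of CDKN2C, by position, held 0, 5 and 1 GC boxes and held CACGTG 1, 0 and 1 times. CDKN1C had no entry among the promoter windows, so its promoter was not examined. Of 35116 promoter windows of this length, 42.6% held GGGCGG, 32.0% CCAAT, 10.7% TATAAA, 5.92% TTTNNCGC, 6.34% CACGTG and 2.98% GTAAACA. These are matches of letters and were not measured as sites.

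To see how the treatment moved the inhibitors, itraconazole was compared with DMSO within each line. In SW948 all 7 changed, with CDKN1A, CDKN1B, CDKN1C, CDKN2A and CDKN2D higher and CDKN2B and CDKN2C lower after itraconazole. In HT55 4 of the 6 members that could be tested rose (CDKN1A, CDKN1C, CDKN2B and CDKN2D), CDKN1B and CDKN2C did not pass the test, and CDKN2A was too low to be fitted. A gene was called changed at an adjusted p under 0.05 in the quasi-likelihood test of edgeR, with Benjamini-Hochberg adjustment over all genes tested. Changes were widespread at this threshold. In HT55 54.0% of 12133 genes were called (27.5% rose and 26.5% fell) and in SW948 80.2% of 12505 (38.9% rose and 41.3% fell), so the number of members called is near what these shares give and the sizes carry more than the count. With plain library totals in place of TMM the share of higher genes among those called went from 51.0% to 32.6% in HT55 and from 48.5% to 31.6% in SW948, because the median log2 fold change of all genes moved from -0.015 to -0.18 in HT55 and from -0.025 to -0.35 in SW948. In bulk RNA, fewer cells with a transcript and less of it per cell cannot be told apart.

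**Figure D1:**
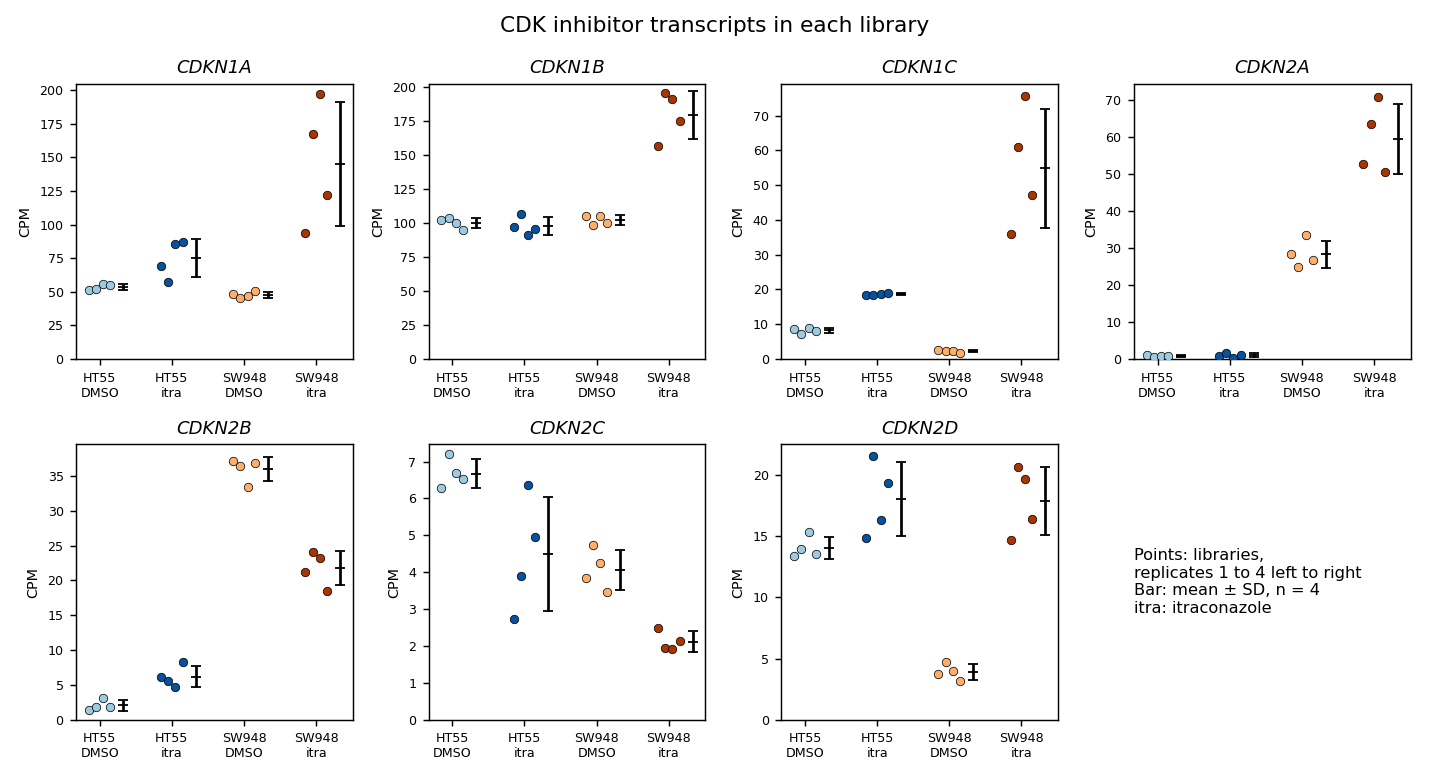
CPM (vertical axes, from 0) of the 7 inhibitor genes in each of the 16 libraries, by line and treatment (itra, itraconazole); points are libraries and bars the mean ± SD of 4. CDKN1C in SW948 runs from 1.85 to 2.73 CPM in DMSO and from 36.0 to 75.5 in itraconazole, while CDKN2A stays at or under 1.65 CPM in all 8 HT55 libraries.

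The CIP/KIP genes were taken first. CDKN1A (ENSG00000124762, chr6:36644237-36655114, plus strand, GRCh37 as for the genes that follow) encodes p21, an inhibitor that is induced after DNA damage. Its level in HT55 DMSO was 51.2, 52.1, 55.9 and 55.0 CPM in replicates 1 to 4, and in HT55 itraconazole 69.5, 57.6, 85.8 and 86.8 CPM. In SW948 DMSO it was 48.2, 45.6, 47.1 and 50.6 CPM, and in SW948 itraconazole 93.6, 168, 197 and 122 CPM. The treated libraries lay above the controls in both lines without overlap, although replicate 2 of HT55 itraconazole was close to the highest control. The log2 fold change was 0.48 ± 0.12 (SE) in HT55 (edgeR adjusted p = 0.00677) and 1.56 ± 0.18 in SW948 (edgeR adjusted p = 1.56e-06). Without replicate 3 the HT55 value was 0.42 (edgeR adjusted p = 0.0038), and with plain library totals it was 0.32 and did not pass (edgeR adjusted p = 0.0698). On plain library totals the HT55 groups overlapped, since replicate 2 of HT55 itraconazole was at 49.9 CPM, under the HT55 DMSO libraries (52.4 to 57.2). In SW948 itraconazole the spread was wide (145 ± 46.3 CPM, SD, n = 4) and replicate 1 was the lowest; without it the log2 fold change was 1.74.

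CDKN1B (ENSG00000111276, chr12:12838432-12875303, plus strand) encodes p27, which holds CDK2 complexes inactive in resting cells. Its CPM in replicates 1 to 4 was 102, 104, 100.2 and 94.7 in HT55 DMSO and 97.4, 107, 91.0 and 95.7 in HT55 itraconazole. In SW948 it was 105, 98.3, 105 and 100.1 in DMSO and 156, 195, 191 and 175 in itraconazole. The 3 groups other than SW948 itraconazole overlapped, and all 4 libraries of that group lay above the rest. In HT55 the log2 fold change was -0.042 with a 95% interval of -0.19 to 0.10 (edgeR adjusted p = 0.611), and 0.0046 without replicate 3. With plain library totals it was -0.21 and passed (edgeR adjusted p = 0.00945), beside a median of -0.18 over all genes on that scale. In SW948 it was 0.78 ± 0.074 (edgeR adjusted p = 3.03e-07).

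CDKN1C (ENSG00000129757, chr11:2904443-2907005, minus strand) encodes p57, an imprinted gene's product that marks many cells leaving the cycle in development. It showed the greatest change of the 7 in SW948. There its raw counts were 34, 25, 27 and 24 in DMSO and 360, 473, 594 and 417 in itraconazole, or 2.73, 2.36, 2.34 and 1.85 CPM against 36.0, 61.0, 75.5 and 47.1 CPM. HT55 started higher, at 8.76, 7.30, 9.01 and 7.94 CPM in DMSO, and reached 18.4, 18.3, 18.7 and 18.9 CPM in itraconazole. The 4 groups did not overlap at any step of their order, and the 4 HT55 itraconazole libraries, replicate 3 included, were close together. The log2 fold change was 4.52 ± 0.24 in SW948 (23.0-fold, edgeR adjusted p = 1.08e-09) and 1.16 ± 0.11 in HT55 (2.24-fold, edgeR adjusted p = 1.92e-05). Without HT55 itraconazole replicate 3 the latter was 1.17, and without SW948 itraconazole replicate 1 the former was 4.70.

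The INK4 genes followed. CDKN2A (ENSG00000147889, chr9:21967751-21995300, minus strand) encodes the CDK4/6 inhibitor p16INK4a and, in another reading frame, p14ARF. It was barely expressed in HT55, with 11, 5, 9 and 7 counts in DMSO and 8, 14, 3 and 9 in itraconazole, and was present in SW948 at 353, 264, 386 and 348 counts in DMSO and 528, 493, 558 and 447 in itraconazole. In SW948 that was 28.3, 24.9, 33.5 and 26.8 CPM against 52.8, 63.5, 70.9 and 50.5 CPM, and the groups did not overlap. The log2 fold change in SW948 was 1.03 ± 0.12 (edgeR adjusted p = 1.74e-06). In HT55 the gene was under the filter on low counts, and on plain library totals it was 0.893 ± 0.287 CPM in DMSO and 0.894 ± 0.478 in itraconazole (SD, n = 4; two-sided exact permutation test over 70 assignments, p = 1.0, where the smallest possible is 0.0286). On the TMM scale it was 0.872 ± 0.282 and 1.001 ± 0.563 CPM (same test, exact p = 0.743).

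The antisense RNA CDKN2B-AS1, whose exons cross those of CDKN2A, had 2 counts in all over the 8 HT55 libraries. In SW948 it had 8, 1, 6 and 9 counts in DMSO and 4, 3, 3 and 5 in itraconazole, so it was low beside the counts of CDKN2A there.

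CDKN2B (ENSG00000147883, chr9:22002902-22009304, minus strand) encodes p15INK4b, an INK4 inhibitor induced by TGF-β. It moved in opposite directions in the 2 lines. In HT55 it had 13, 18, 30 and 16 counts in DMSO and 52, 47, 50 and 67 in itraconazole, or 1.41, 1.85, 3.18 and 1.90 CPM against 6.17, 5.54, 4.75 and 8.32 CPM. In SW948 it had 37.2, 36.4, 33.4 and 36.9 CPM in DMSO and 21.2, 24.1, 23.3 and 18.5 CPM in itraconazole. Treated and control libraries did not overlap in either line. The log2 fold change was 1.55 ± 0.27 in HT55 (edgeR adjusted p = 0.000804) and -0.76 ± 0.094 in SW948 (edgeR adjusted p = 3.92e-06), and 1.68 in HT55 without replicate 3. After itraconazole the HT55 level was still below every SW948 library.

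CDKN2C (ENSG00000123080, chr1:51426417-51440306, plus strand) encodes p18INK4c and is itself an E2F-responsive gene. It was low in both lines, at 58, 70, 63 and 55 counts in HT55 DMSO and 23, 33, 67 and 40 in HT55 itraconazole, and at 48, 50, 49 and 45 counts in SW948 DMSO and 25, 15, 15 and 19 in SW948 itraconazole. Replicate 3 of HT55 itraconazole, at 6.37 CPM, lay within the HT55 DMSO range (6.27 to 7.20), and the other 3 lay under it at 2.73 to 4.97. In SW948 the groups did not overlap (3.46 to 4.73 CPM against 1.91 to 2.50). The log2 fold change was -0.95 ± 0.19 in SW948 (edgeR adjusted p = 0.000309). In HT55 it was -0.56 ± 0.23 (edgeR adjusted p = 0.056) and did not pass, whereas without replicate 3 it was -0.78 and passed (edgeR adjusted p = 0.00322).

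CDKN2D (ENSG00000129355, chr19:10677136-10679735, minus strand) encodes p19INK4d. Its level in HT55 was 13.4, 14.0, 15.4 and 13.5 CPM in DMSO and 14.8, 21.6, 16.4 and 19.4 in itraconazole, with replicate 1 of the treated group inside the control range. In SW948 it was 3.77, 4.73, 3.99 and 3.16 CPM in DMSO and 14.7, 20.6, 19.7 and 16.4 in itraconazole, without overlap. The log2 fold change was 2.16 ± 0.16 in SW948 (4.46-fold, edgeR adjusted p = 1.86e-08) and 0.35 ± 0.13 in HT55 (1.28-fold, edgeR adjusted p = 0.0408). The HT55 call was near the threshold. It was kept without replicate 3 (0.41, edgeR adjusted p = 0.013) and was lost when any one of 5 other HT55 libraries was left out (0.25 to 0.36, edgeR adjusted p = 0.0781 to 0.104) or plain library totals were used (0.18, edgeR adjusted p = 0.227).

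Over the members tested, the treated and control groups of 4 did not overlap for 3 of 6 in HT55 (CDKN1A, CDKN1C and CDKN2B) and for 7 of 7 in SW948. Among all genes tested 49.4% did not overlap in HT55 and 74.7% in SW948. These counts and shares are on the TMM scale. On plain library totals CDKN1A overlapped in HT55, whereas CDKN1B and CDKN2C did not.

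**Figure D2:**
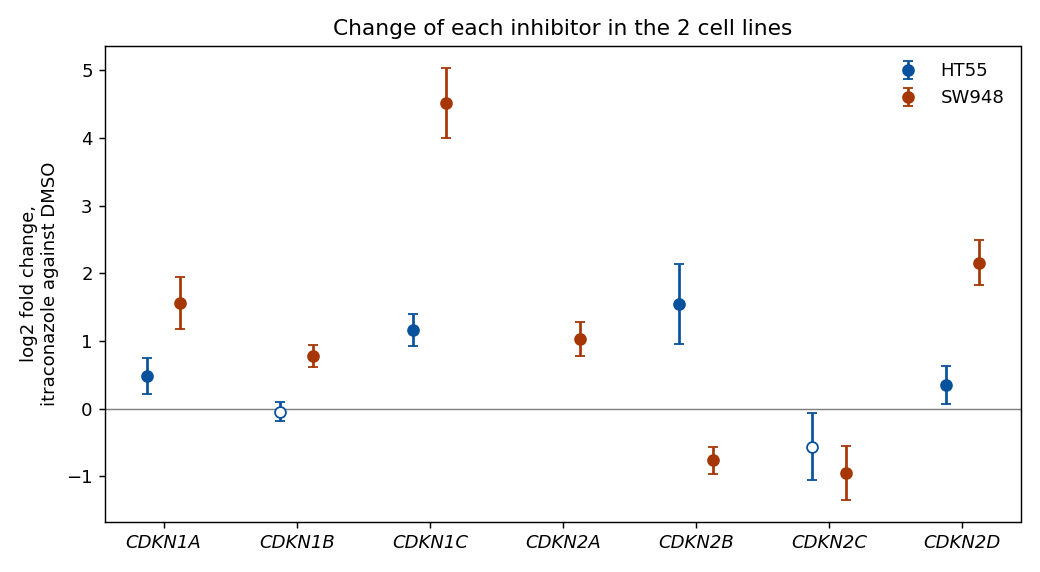
Log2 fold change of itraconazole against DMSO (vertical axis) with its 95% interval for each inhibitor in HT55 (blue) and SW948 (brown); filled points passed the edgeR test, open points did not, and CDKN2A has no HT55 point. CDKN1C reaches 4.52 in SW948, and CDKN2B lies at 1.55 in HT55 and at -0.76 in SW948.

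Whether the response itself differed between lines was tested as the interaction of line and treatment over all 16 libraries, where 53.9% of 13249 genes were called. It passed for 5 of the 6 members that were tested in both lines. The response of SW948 was more positive than that of HT55 by 3.39 ± 0.28 on the log2 scale for CDKN1C (edgeR adjusted p = 2.11e-08), by 1.84 ± 0.21 for CDKN2D (edgeR adjusted p = 7.71e-07), by 1.11 ± 0.24 for CDKN1A (edgeR adjusted p = 0.000588) and by 0.85 ± 0.10 for CDKN1B (edgeR adjusted p = 1.54e-06). All 3 CIP/KIP genes were in this group. For CDKN2B the difference was -2.28 ± 0.26 (edgeR adjusted p = 6.79e-07). For CDKN2C it was -0.36 with a 95% interval of -0.99 to 0.26 (edgeR adjusted p = 0.316). The response of CDKN2A was not compared between the lines, since the gene was under the filter in HT55. Without HT55 itraconazole replicate 3 the 6 values were 3.38, 1.78, 1.17, 0.81, -2.40 and -0.14 for CDKN1C, CDKN2D, CDKN1A, CDKN1B, CDKN2B and CDKN2C, and the same 5 members passed.

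The lines were then compared with each other under the same treatment. In DMSO 75.9% of genes differed (38.2% higher and 37.7% lower in SW948). CDKN2B was higher in SW948 by 4.10 ± 0.18 on the log2 scale (edgeR adjusted p = 9.97e-14). CDKN2A, its neighbor on chromosome 9, had 32 counts in all over the 4 HT55 DMSO libraries and 1351 over the 4 of SW948 DMSO. It passed the filter only through SW948, so no test between lines is given for it. CDKN1C, CDKN2D and CDKN2C were lower in SW948, with log2 differences of -1.83 ± 0.23, -1.85 ± 0.16 and -0.72 ± 0.19 (edgeR adjusted p = 6.21e-07, 1.94e-09 and 0.00214). CDKN1A and CDKN1B did not pass, at -0.16 (95% interval -0.52 to 0.19) and 0.029 (-0.12 to 0.18). For CDKN1A the DMSO ranges lay close but did not overlap (highest SW948 library 50.6 CPM, lowest HT55 library 51.2). The fit took 1 spread over all 4 groups, and the SD of CDKN1A was 46.3 CPM in SW948 itraconazole against 2.25 in HT55 DMSO and 2.11 in SW948 DMSO. With plain library totals the sign of CDKN1A turned (0.036) and CDKN1B passed at 0.23 (edgeR adjusted p = 0.00188), beside a median of 0.20 over all genes on that scale.

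In itraconazole 80.9% of genes differed (39.3% higher and 41.5% lower in SW948), and the order of the lines was turned for CDKN1C. Its level was now higher in SW948, by 1.56 ± 0.16 (edgeR adjusted p = 2.89e-08). CDKN1A and CDKN1B, which had not passed in DMSO, were higher in SW948 by 0.95 ± 0.16 and 0.88 ± 0.073 (edgeR adjusted p = 2.69e-05 and 1.03e-09). CDKN2D, lower in SW948 in DMSO, did not pass in itraconazole (-0.018, 95% interval -0.30 to 0.27). CDKN2B was higher in SW948 by 1.82 ± 0.16, and CDKN2C had a difference of -1.08 ± 0.23. CDKN2A had 34 counts over the HT55 itraconazole libraries and 2026 over those of SW948 itraconazole. Without HT55 itraconazole replicate 3 the 6 tested differences were 1.56 for CDKN1C, 1.02 for CDKN1A, 0.84 for CDKN1B, -0.067 for CDKN2D, 1.70 for CDKN2B and -0.84 for CDKN2C, with the same calls.

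Levels were set beside each other between genes only per kilobase of exon. CDKN1A was the highest of the 7 in every group, at 17.9 ± 0.749 CPM per kilobase in HT55 DMSO, 25.0 ± 4.68 in HT55 itraconazole, 15.97 ± 0.702 in SW948 DMSO and 48.4 ± 15.4 in SW948 itraconazole (SD, n = 4). CDKN1C went from the seventh place in SW948 DMSO (0.935 ± 0.145) to the second in SW948 itraconazole (22.1 ± 6.90). CDKN2A was the lowest in both HT55 groups (0.224 ± 0.0725 and 0.258 ± 0.145) and the fourth in both SW948 groups (7.31 ± 0.943 and 15.3 ± 2.46). The sum over the 7 was 44.3 CPM per kilobase in HT55 DMSO, 58.3 in HT55 itraconazole, 48.2 in SW948 DMSO and 123 in SW948 itraconazole. CDKN1A made up 39.3% of the last sum, CDKN1C 18.0% and CDKN1B 15.7%, against 33.1%, 1.94% and 22.9% in SW948 DMSO. Lengths were all exons of the annotation merged. With the longest transcript instead, 4 or 5 of the 7 kept their place in each group. On that measure CDKN2A was first and CDKN1A the third in SW948 DMSO, CDKN2A was the second and CDKN1C the fourth in SW948 itraconazole, and CDKN2A was the sixth in HT55 DMSO.

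**Figure D3:**
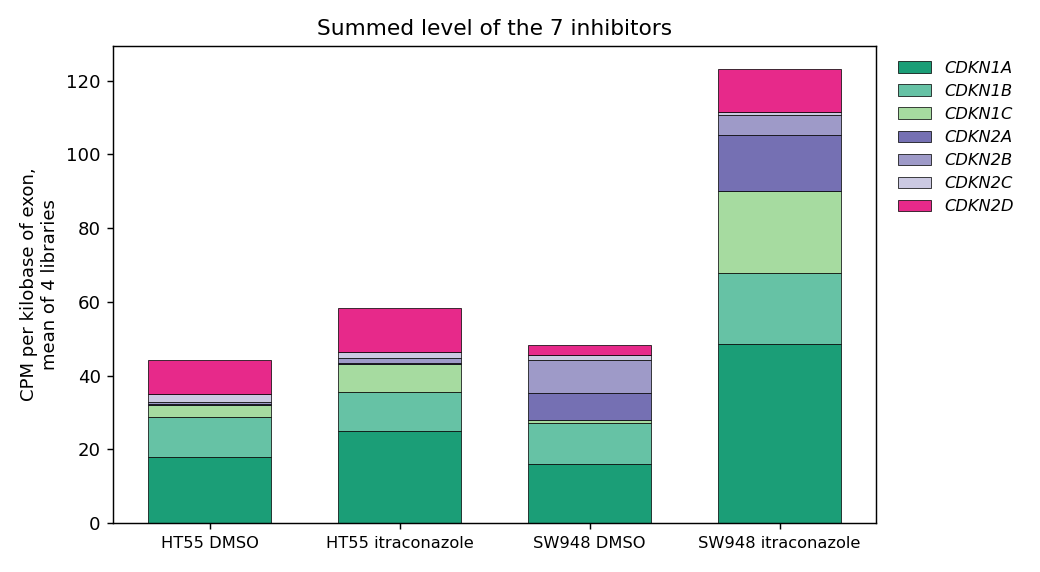
Mean level of each inhibitor in CPM per kilobase of exon (vertical axis), stacked for each of the 4 groups; each segment is the mean of 4 libraries. The stack is 48.2 in SW948 DMSO and 123 in SW948 itraconazole, where CDKN1A (48.4), CDKN1C (22.1) and CDKN1B (19.4) are the largest segments.

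The genes that the inhibitors act on, and those known to act on them, were counted as lists, and HT55 and SW948 are given in that order. Of 11 CDKs and cyclins, HT55 had 2 that rose and 6 that fell (median log2 fold change -0.23, against -0.015 over all genes tested), and SW948 had 7 that rose and 2 that fell (0.46, against -0.025). CDK4, the target of INK4 proteins, fell by 0.65 on the log2 scale in HT55 (edgeR adjusted p = 0.000351) and by 1.34 in SW948 (edgeR adjusted p = 4.7e-10). CDK6, the other target, rose by 0.21 in HT55 (edgeR adjusted p = 0.0321) and by 0.52 in SW948 (edgeR adjusted p = 3.05e-05), but passed in neither line under plain library totals (0.041 and 0.19, edgeR adjusted p = 0.638 and 0.0615). Cyclin E2 (CCNE2), a partner of CDK2, fell by 0.84 in HT55 and by 2.79 in SW948, and cyclin E1 (CCNE1) fell by 0.52 in HT55 and rose by 1.09 in SW948. Cyclins A2 and D2 (CCNA2 and CCND2) rose by 1.43 and 1.42 in SW948. On plain library totals none of the 11 rose and 7 fell in HT55, while SW948 had 3 higher and 3 lower, with a median of -0.40 in HT55 (against -0.18 over all genes) and of 0.13 in SW948 (against -0.35).

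Of 11 genes for RB-like proteins, E2F factors and their dimer partner, HT55 had 1 that rose and 5 that fell (median -0.22), and SW948 had 1 that rose and 8 that fell (median -1.38). RBL1, which encodes the RB relative p107, fell by 0.94 in HT55 and fell by 2.75 in SW948. E2F7 and TFDP1 fell by 0.61 and 0.60 in HT55, and E2F2 and E2F1, activators of S-phase genes, fell by 4.77 and 3.03 in SW948. Without HT55 itraconazole replicate 3, 2 rose and 8 fell in HT55. Of 15 replication genes activated by E2F, 14 fell in HT55 (median -0.56) and 13 fell in SW948 (median -1.11), with none that rose in either line (1 rose in SW948 without itraconazole replicate 1). The helicase subunit gene MCM3 fell by 0.84 and 1.94, RRM2 of nucleotide reduction by 0.77 in HT55, and TYMS of thymidylate synthesis by 1.79 in SW948. Plain library totals left these counts at 14 and 13.

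Of 10 genes for ubiquitin ligase parts that degrade CIP/KIP proteins, HT55 had 2 that rose and 2 that fell (median 0.011), and SW948 had 5 that rose and 4 that fell (median 0.17). These counts are near the shares over all genes in both lines (27.5% rose and 26.5% fell in HT55, 38.9% and 41.3% in SW948). SKP2, which recognizes p27 for breakdown, fell by 0.97 in HT55 (edgeR adjusted p = 0.00155) and by 2.56 in SW948 (edgeR adjusted p = 1.68e-10). DTL, which directs breakdown of p21 at replicating DNA, fell by 0.53 and 1.72, and the cullin gene CUL4B rose by 0.50 and 0.54. RNA counts do not show protein levels or turnover. Under plain library totals HT55 had 2 higher and 5 lower and SW948 had 2 higher and 4 lower.

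Of 19 factors known to activate members, 18 could be tested in HT55, where 11 rose and 2 fell (median 0.42), and in SW948 13 rose and 5 fell (median 0.49). In HT55 the immediate-early gene JUNB, KLF6 and the forkhead factor FOXO1, an activator of CDKN1A and CDKN1B, rose by 0.89, 0.87 and 0.87. In SW948 ETS1, FOXO3 and FOXO1 rose by 1.87, 1.49 and 1.44. Under plain library totals 10 activators were higher and 4 lower in HT55, with 9 higher and 6 lower in SW948.

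Of 18 factors known to repress members, 17 could be tested in HT55, where 5 rose and 1 fell (median 0.022), and 16 in SW948, where 5 rose and 8 fell (median -0.29). The counts that rose, and the count that fell in SW948, are near the shares over all genes. EZH2, the histone methyltransferase of the Polycomb complex that silences CDKN2A and CDKN1C, fell by 1.57 in HT55 (edgeR adjusted p = 0.000533) and by 1.33 in SW948 (edgeR adjusted p = 3.7e-08). The Notch target HES1 and TBX3 rose by 1.71 and 0.83 in HT55, and ID1 and ID3, inhibitors of helix-loop-helix factors, fell by 2.19 and 1.59 in SW948. On plain library totals HT55 had 5 higher and 6 lower and SW948 had 2 higher and 10 lower. Without HT55 itraconazole replicate 3, 6 rose and 3 fell in HT55. For the lists above, leaving that library out gave 3 higher and 6 lower CDKs and cyclins, 0 and 14 replication genes, 3 and 2 ligase parts, and 11 and 2 activators.

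**Figure D4:**
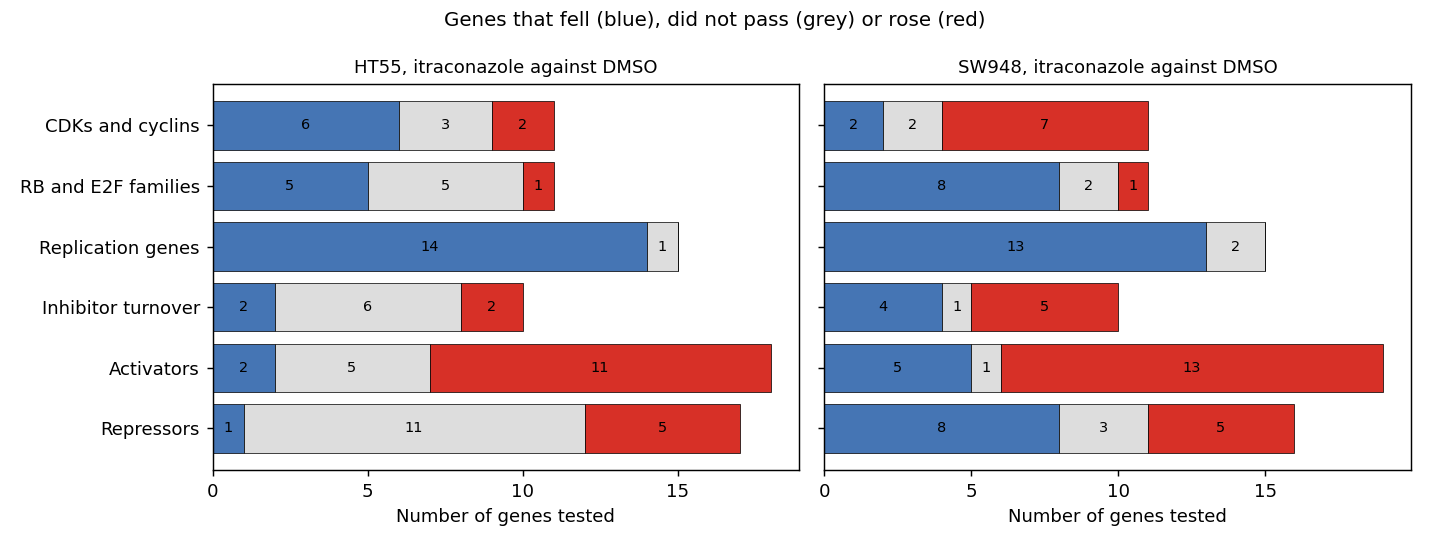
Number of genes tested (horizontal axis) in each of 6 lists of genes around the inhibitors, split into those that fell, did not pass the edgeR test or rose after itraconazole, in HT55 (left) and SW948 (right). Of 15 replication genes, 14 fell in HT55 and 13 in SW948, and none rose.

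The nearest protein-coding genes that do not overlap a member were examined on each side, to see whether it moved with its surroundings. Beside CDKN1C, KCNQ1 did not pass in either line (0.15 and -0.059), and SLC22A18 rose by 0.90 in HT55 (edgeR adjusted p = 8.8e-06) but did not pass in SW948 (0.17, edgeR adjusted p = 0.122), where CDKN1C changed most. Beside the CDKN2A and CDKN2B pair, MTAP fell by 0.40 in HT55 and by 0.68 in SW948, so that in SW948 CDKN2A rose between 2 neighbors that fell. DMRTA1 on the far side had 3 counts in all. Beside CDKN1A, SRSF3 fell by 0.70 and 1.09 while CDKN1A rose, and RAB44 had no count. CREBL2 and APOLD1, beside CDKN1B, fell by 0.71 and 1.26 in SW948 and did not pass in HT55. GPR19, on the opposite strand, overlaps the CDKN1B gene without sharing exon bases; it fell by 1.19 in HT55 (edgeR adjusted p = 0.00496) and was under the filter in SW948. KRI1, only 429 bases from CDKN2D, fell by 0.41 and 0.54, and AP1M2 on its other side did not pass in either line (0.12 and 0.042). FAF1, 478 bases from CDKN2C, fell by 0.30 and 0.24, and C1orf185 had no count.

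The genes whose log2 CPM followed a member most closely over the 16 libraries were named from 9213 genes of moderate or higher level. The libraries fall into 4 clusters by line and treatment, so a high correlation can follow from the largest gaps between groups. It does not show that a gene has the same order of the 4 groups, and no test was made. For CDKN1C they were AK3, CYP51A1 (r = 0.991 each), the sterol demethylase that azoles bind, and MSL1 (0.987). For CDKN2D they were MORF4L1 (0.989), ACSS2 (0.985) and NSDHL (0.982), the last an enzyme of cholesterol synthesis. CDKN1A was followed by RNF126 (0.976), FOXP4 (0.970) and PEA15 (0.965), and CDKN1B by GTF2B (0.994), SBDS (0.989) and MRPL44 (0.983). CDKN2B was followed by MARCKSL1 (0.982), GREM1 (0.979) and USP25 (0.978). CDKN2A passed the filter on low counts only through SW948, so no genes are named for it. CDKN2C was followed by LIMK2 (0.964), the histone gene H2AZ2 (0.957) and PCLAF (0.956), which encodes a PCNA-binding protein of replicating cells.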

How the data were processed

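RNA of 16 cultures was sequenced as TruSeq libraries with single-end reads of 50 bases. The submitters' processing notes name TopHat, HTSeq and DESeq and the build hg19. Versions are not given in the sources used here. The authors deposited raw counts per Ensembl gene, not normalized, with 5 totals of reads outside genes, which were left out. These totals were 28.2% to 32.9% of the reads in a file, and 22.0% to 27.9% were reads with several alignments.

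The counts as deposited were tested with edgeR 4.0.16 in R 4.3.3 (quasi-likelihood test, TMM, filterByExpr). Each line was fitted on its 8 libraries, and the interaction and the line contrasts on all 16. The standard error is the log2 fold change over the square root of F. DESeq2 1.42.0 was an alternative. Python 3.11.15 computed the levels and the exact permutation test. Symbols, positions and exon lengths came from GENCODE on GRCh37, promoter windows from RefSeq (GRCh38.p14). PECAM1 and KCNQ1OT1 had no match. Libraries of a group differed by more than sampling noise (chi-square per degree of freedom 1.4 to 37.7). The fits were tested on simulated data. Named from each list were at most 3 called genes per line with the largest absolute log2 fold change, plus CDK4, CDK6 and cyclin E1, chosen after their values were seen, as was GPR19. Some items of the lists are not reported here. The 3 genes most like each member, CDKN2A left out, were ranked by Pearson correlation of log2 CPM among genes with a mean of at least 3. The members and lists were chosen with earlier results of these data known. Reads carried no molecular identifiers, so counts include copies made by PCR. Alternatives were other scalings, filters, a replicate block and leaving out each library. The list counts under other scalings and without 1 library were added after seeing the data.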

Additional observations from a re-analysis of the deposited data

Results flagged for a closer look

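For 5 members the response to itraconazole differed between the lines by the interaction test over all 16 libraries. The log2 difference, SW948 minus HT55, was 3.39 for CDKN1C, 1.84 for CDKN2D, 1.11 for CDKN1A and 0.85 for CDKN1B, which rose by more in SW948 than in HT55 or, for CDKN1B, passed in SW948 alone. It was -2.28 for CDKN2B, which was higher in 4 of 4 treated libraries than in any control in HT55 and lower in 4 of 4 in SW948. No library stood apart from the other 3 of its group by Dixon's limit for 4 samples in any of the 28 combinations of member and group, where chance flags about 1 in 20.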

How the results depend on the processing

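In SW948 all 7 members kept their direction and call under all 16 alternatives, the replicate block included. In HT55 80 of 96 values kept both. Plain library totals, the replicate block, no filter and 1 fit on all 16 libraries each made CDKN2C pass (-0.72, -0.60, -0.57 and -0.55, edgeR adjusted p = 0.0274, 0.0447, 0.0455 and 0.0221). The first 3 lost CDKN2D (0.18, 0.34 and 0.34, edgeR adjusted p = 0.227, 0.059 and 0.0651). Plain totals also lost CDKN1A and made CDKN1B pass, so 4 members were called in HT55 as before but only 2 of them were the same. Signs turned for values near 0: CDKN1B in HT55 (-0.085 to 0.0046 when 1 library was left out, the highest without itraconazole replicate 3), CDKN1A between lines in DMSO with plain totals (0.036), and CDKN2D between lines in itraconazole (0.0086 with DESeq2 size factors or its Wald test, 0.013 with at least 10 counts in every library, -0.099 to 0.082 when 1 library was left out). Whether replicate numbers pair the libraries cannot be decided from 4 same-numbered pairs in each line. Same-numbered libraries' deviations correlated at -0.025 to 0.116 in HT55 and -0.0035 to 0.104 in SW948, above 0.1 for 1 of 4 pairs in each. Pairs with different numbers ran from -0.106 to 0.0501 in HT55 and from -0.12 to 0.0451 in SW948. With the replicate block 6300 genes were called in HT55 in place of 6553, and 9973 in SW948 in place of 10030. The depth limits CDKN2A in HT55, CDKN2B-AS1 and, to a lesser degree, CDKN2C.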
